A study of Mus musculus with 22 samples.

Results

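Adrenocortical steroid synthesis was followed through 10 genes across RNA-seq libraries of mouse liver cells: Cyp11b1, Cyp11b2, Cyp21a1, Cyp11a1, Hsd3b1, Akr1b7, Star, Nr5a1, Mc2r and Mrap. These are 10 of the 55367 gene symbols in the count table. The libraries were separated by a rule on 4 of the genes: a library was set apart where Cyp11b1, Cyp21a1, Hsd3b1 and Akr1b7 each reached 5 or more CPM (reads of a gene scaled by the total reads of its library in the usual way, so that libraries of unequal depth can be compared). The rule set apart 5 of the 22 libraries. The 5 libraries were chosen by these values, so the levels of the 4 genes are given as a description. The fits covered all genes, but no test of these 4 is given as a result.

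The cells, labelled HSC (hepatic stellate cells, the fibrogenic cells of the liver), were isolated from liver, and the labels used here name no strain, sex or genotype. Mice aged 8 weeks received chow (control) or CDA-HFD, a choline-deficient high-fat diet that produces fatty liver with fibrosis, for 12 weeks and were 20 weeks old at collection, while another label gives 6 months of diet. Collection was at zeitgeber time (ZT) 0, the start of the light period, at ZT6, at ZT12, the start of the dark period, and at ZT18. Each diet group had 3 libraries per time, while control had 3 for ZT0, 3 for ZT18 and 2 each for ZT6 and ZT12. The labels do not say whether libraries of a group came from separate animals. The p-values therefore reflect library-to-library spread, some or all of it possibly technical.

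The adrenal cortex makes corticosteroids from cholesterol. Corticotropin from the pituitary acts on the receptor Mc2r, which needs its accessory protein Mrap, and the nuclear receptor Nr5a1 drives the genes of the pathway. Star brings cholesterol into mitochondria, Cyp11a1 cuts its side chain to give pregnenolone, Hsd3b1 and Cyp21a1 carry out the next steps, Cyp11b1 completes corticosterone in the inner cortex and Cyp11b2 completes aldosterone in the outer zone. In mice corticosterone secretion follows the day, with its peak around the start of the dark period, and adult liver is not known as a site of corticosteroid synthesis.

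Promoters of 3 of the 10 genes were matched in RefSeq (GRCm38.p6), and those of Akr1b7 and Hsd3b1 are shown because both genes belong to the rule. Each run is the 250 bases before the RefSeq start, on the gene's own strand. Capitals mark AAGGTCA on the opposite strand, a form of the sequence that Nr5a1 binds.
Akr1b7, chr6:34412112-34412361, plus strand: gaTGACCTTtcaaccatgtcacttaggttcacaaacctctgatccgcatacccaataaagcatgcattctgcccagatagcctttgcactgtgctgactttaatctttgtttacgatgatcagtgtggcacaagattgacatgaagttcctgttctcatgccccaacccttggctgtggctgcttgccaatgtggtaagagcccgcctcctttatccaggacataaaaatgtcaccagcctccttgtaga
Hsd3b1, chr3:98859795-98860044, minus strand: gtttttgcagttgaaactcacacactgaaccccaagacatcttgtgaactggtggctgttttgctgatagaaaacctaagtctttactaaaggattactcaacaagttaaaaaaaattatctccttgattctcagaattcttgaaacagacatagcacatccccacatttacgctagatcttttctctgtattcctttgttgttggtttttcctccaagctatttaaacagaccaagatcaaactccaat
The words AAGGTCA and AAGGCCA were searched on both strands. Over 32851 promoter windows of the same length, 4.08% held AAGGTCA, 5.24% held AAGGCCA and 9.09% held either. In the Akr1b7 window AAGGTCA begins 248 bases before the start. Neither word is in the windows shown or searched for Hsd3b1 and Cyp11a1, whose entry has 2 starts. A match is a description of the letters and not of binding.

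Library totals ran from 19754805 to 41665623 reads. A count of 3 reads, the limit that a count of 0 allows, corresponds to 0.072 to 0.152 CPM. Libraries separated by diet on the first principal component, which held 40.2% of the variance. The library control ZT18 replicate 1 stood apart on the second component (6.45% of the variance), at 110 against 34.6 and 28.9 for replicates 2 and 3 of its group. It is one of the 5 libraries at the threshold, and control ZT0 replicate 2 stood apart on the first component, at -46.6 against -95.8 to -126 for the other 9 control libraries. The label HSC was checked against markers. Lrat, a defining gene of quiescent stellate cells, was at 0 to 4.004 CPM over all libraries, and 12 stellate markers summed to 305 to 1151 CPM in control and 185 to 552 CPM under diet. The 10 endothelial markers summed to 14786 to 24956 CPM in control and 979 to 2246 CPM under diet. In every library the endothelial sum lay above the stellate sum, so these markers do not by themselves bear out the label. In bulk libraries, fewer cells of a type and less RNA per cell cannot be told apart.

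All 3 control libraries at ZT18 were at the threshold, as were 1 of 2 control libraries at ZT12 (replicate 2) and 1 of 3 diet libraries at ZT18 (replicate 1). No library at ZT0 or ZT6 was, in either diet, and no diet library at ZT12. This gives 4 of 10 control and 1 of 12 diet libraries. The 10 genes together took 275, 774 and 827 CPM in control ZT18 replicates 1, 2 and 3, 375 CPM in control ZT12 replicate 2 and 365 CPM in diet ZT18 replicate 1. In the other 17 libraries they took 4.81 to 33.8 CPM. The lowest value inside the threshold was Akr1b7 at 7.97 CPM in control ZT18 replicate 1. Just outside were diet ZT12 replicate 1, where Hsd3b1 stood at 5.09 CPM but Akr1b7 at 0.0951, and diet ZT18 replicate 2, where the 4 genes stood between 0.343 and 1.52 CPM. A limit of 2 CPM, or CPM scaled by TMM, gave the same number of libraries, and a limit of 10 CPM gave 4, without control ZT18 replicate 1.

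**Figure D1:**
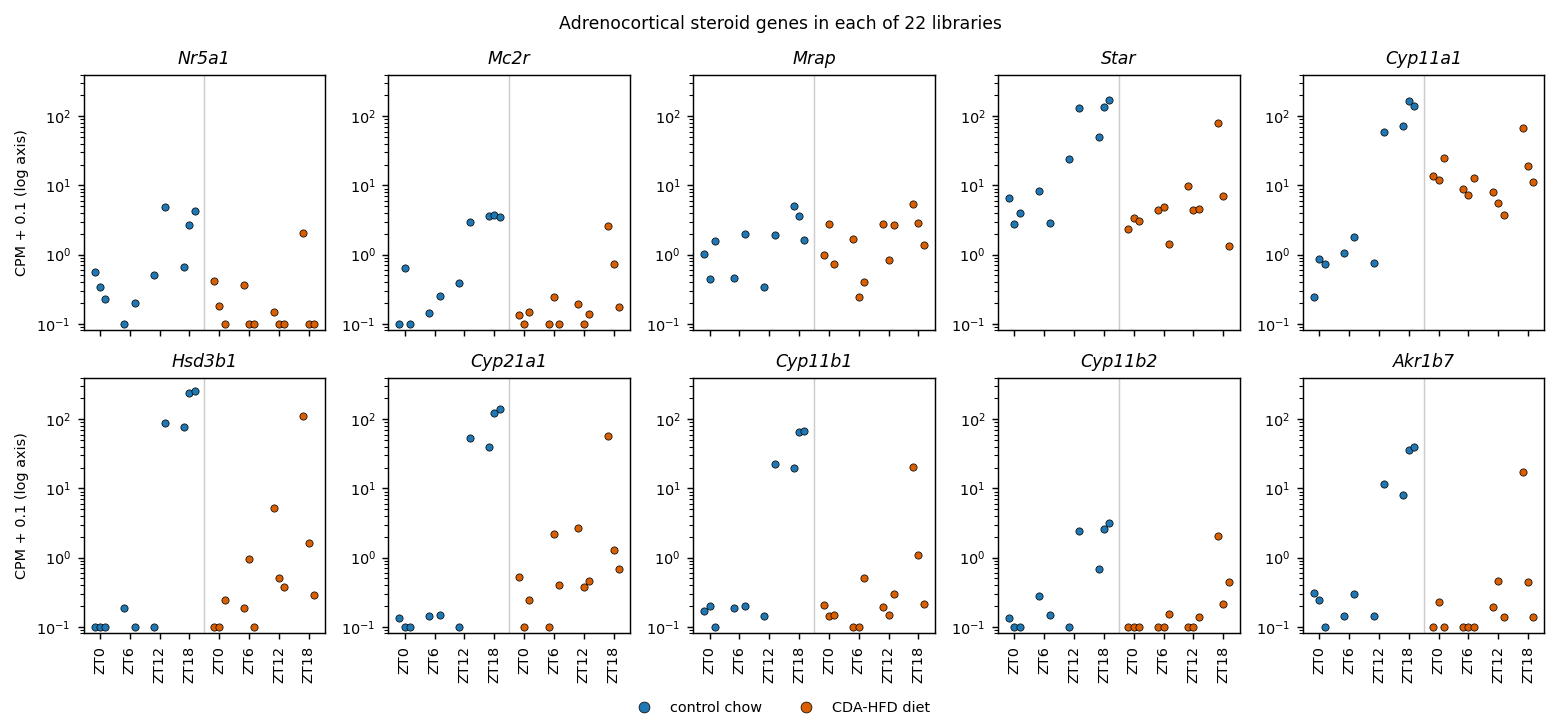
Each point is 1 library; the vertical axis is CPM plus 0.1 on a log axis and the horizontal axis is zeitgeber time, control chow in blue and CDA-HFD in orange. In 9 of the 10 panels the 3 control ZT18 libraries, 1 control ZT12 library and 1 diet ZT18 library lie above every other library, and in the Mrap panel the values of these libraries overlap the others. Of these 9 genes, 4 are the rule genes that chose the libraries. Over 18136 genes with 30 or more reads in 1 library, 30 (0.165%) did so, and nothing is read from the count.

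The regulators were low in every library. Nr5a1, the nuclear receptor, stood at 0.572, 2.56 and 4.13 CPM in control ZT18, at 0.409 and 4.80 in control ZT12, and at 1.97, 0 and 0 in diet ZT18. At ZT0 and ZT6 it stood between 0 and 0.455 CPM in control and between 0 and 0.317 under diet. Its highest level was therefore in a control ZT12 library, not at ZT18. Mc2r, the corticotropin receptor, stood at 3.47, 3.603 and 3.36 CPM in control ZT18, at 0.286 and 2.86 in control ZT12, and at 2.49, 0.629 and 0.0763 in diet ZT18. In the other libraries it did not pass 0.529 CPM. The 3 control ZT18 values of Mc2r lay close together, although Hsd3b1 differed over 3-fold among the same libraries.

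Mrap, the partner of Mc2r that also serves other melanocortin receptors outside the adrenal, did not separate the libraries. It stood at 4.94, 3.57 and 1.504 CPM in control ZT18, at 0.245 and 1.85 in control ZT12 and at 5.31, 2.77 and 1.30 in diet ZT18. Diet ZT0 held 0.88, 2.62 and 0.625 CPM, so the ranges of the groups overlap. The gene ranked 521 among 18135 genes for likeness to Cyp11b1 across libraries, against ranks of 1 to 38 for the other 8 genes.

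Star, the cholesterol carrier, was present in all 22 libraries. It stood at 6.54, 2.695 and 3.83 CPM in control ZT0, at 8.14 and 2.71 in control ZT6, at 23.8 and 130 in control ZT12, and at 50.1, 134 and 169 in control ZT18. Control ZT12 replicate 1, which held 2 reads in all for the 4 rule genes, thus had the highest Star level of the 17 libraries below the threshold. Under diet Star stood at 2.25 to 3.33 CPM at ZT0, 1.32 to 4.70 at ZT6, 4.27 to 9.61 at ZT12, and 80.5, 6.98 and 1.22 at ZT18.

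Cyp11a1, the first enzyme, was also present below the threshold under diet. It stood at 71.2, 166 and 141 CPM in control ZT18 and at 0.654 and 58.8 in control ZT12. The other control libraries held 0.14 to 1.68 CPM. Under diet it stood at 13.5, 11.8 and 24.5 CPM at ZT0, at 8.75, 7.21 and 12.7 at ZT6, at 8.04, 5.50 and 3.67 at ZT12, and at 68.5, 19.2 and 11.2 at ZT18. The 11 diet libraries below the threshold (3.67 to 24.5 CPM) lay above the 6 control libraries below it (0.14 to 1.68 CPM) without overlap. Of 18136 genes with 30 or more reads in 1 library, 2840 (15.7%) did so, and no test is attached to this count. In 8 of those 11 diet libraries no rule gene reached 1 CPM, and Cyp11b1 stood at 0 to 1.00 CPM in all 11.

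**Figure D2:**
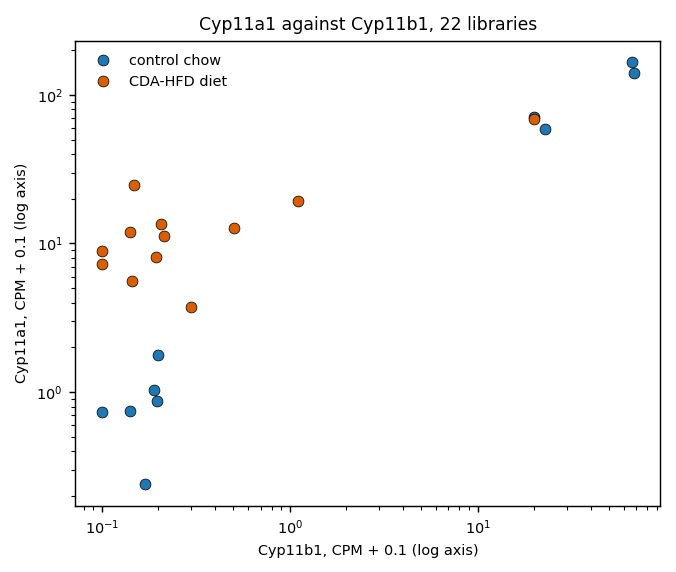
Each point is 1 of the 22 libraries; both axes are CPM plus 0.1 on log axes, with control in blue and the diet in orange. The 5 libraries at the upper right have Cyp11b1 at 19.82 to 67.8 CPM, and at low Cyp11b1 the diet libraries lie above the control libraries in Cyp11a1.

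Markers of immune cells were counted in the same libraries. The 7 lymphocyte markers, all at 1 CPM or more in every library, summed to 211 to 948 CPM in control and 1459 to 3606 CPM under diet, with Cd3e at 39.4 to 227 against 152 to 597 CPM and Cd8a at 3.98 to 44.7 against 128 to 662 CPM. The 5 mast cell markers summed to 205 to 726 CPM in control and 61.2 to 103 CPM under diet, where Kit, which other cells share, makes up most of the sum. Of the 5, Cpa3 and Cma1 were called higher, Kit and Mcpt4 lower, and Tpsb2 was not called. Cpa3 stood at 0.409 to 4.38 CPM in control and 4.49 to 18.7 under diet, and Mcpt4 at 0 to 1.16 CPM in control and 0 to 0.476 under diet. The part of these cells in the Cyp11a1 level was not tested.

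Hsd3b1 had the highest level of the 10 genes per kilobase of exon in all 5 libraries, 41.9 to 139 CPM per kilobase. It stood at 77.7, 235 and 258 CPM in control ZT18, at 0 and 86.8 in control ZT12, and at 109, 1.52 and 0.191 in diet ZT18. In control ZT0 all 3 libraries held 0 reads of it. Cyp21a1, a steroid hydroxylase, stood at 39.1, 125 and 140 CPM in control ZT18, at 0 and 53.6 in control ZT12 and at 57.5, 1.20 and 0.572 in diet ZT18. Both genes had reads in diet libraries below the threshold: Cyp21a1 held 60 reads in diet ZT6 replicate 2 and 54 in diet ZT12 replicate 1, and Hsd3b1 held 24 and 107 in the same libraries. The 6 control libraries below the threshold held at most 1 read of Cyp21a1 and 2 of Hsd3b1.

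Cyp11b1, the last enzyme of corticosterone synthesis (chr15:74834125-74841643, minus strand), stood at 19.82, 66.1 and 67.8 CPM in control ZT18, at 0.0409 and 22.7 in control ZT12 and at 19.98, 1.00 and 0.114 in diet ZT18. Its reads in diet ZT18 were 538, 35 and 3. Cyp11b2, the aldosterone synthase gene on the same chromosome (chr15:74851010-74856318, minus strand), stood at 0.572, 2.45 and 3.01 CPM in control ZT18, at 0 and 2.30 in control ZT12, and at 1.97, 0.114 and 0.343 in diet ZT18. In the other libraries Cyp11b2 held at most 4 reads. Akr1b7, an aldo-keto reductase abundant in the adrenal cortex (chr6:34412334-34423142, plus strand), stood at 7.97, 36.1 and 39.2 CPM in control ZT18, at 0.0409 and 11.5 in control ZT12 and at 17.1, 0.343 and 0.0381 in diet ZT18.

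The genes did not keep 1 ratio in the 5 libraries. Among the reads of the 10 genes in a library, Hsd3b1 took 28.2%, 30.4% and 31.2% in control ZT18 replicates 1 to 3, 23.1% in control ZT12 replicate 2 and 29.99% in diet ZT18 replicate 1. Star took 18.2%, 17.3% and 20.5% in control ZT18, 22.1% in diet ZT18 replicate 1 and 34.7% in control ZT12 replicate 2 (exact 95% binomial interval 33.9% to 35.4%). Cyp11a1 took 25.9% in control ZT18 replicate 1 and 15.7% in control ZT12 replicate 2. As the highest share over the lowest, Cyp21a1 varied least (14.2% to 16.9%, a ratio of 1.19) and Mrap most (0.182% to 1.79%, a ratio of 9.87). Intervals cover counting error only.

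**Figure D3:**
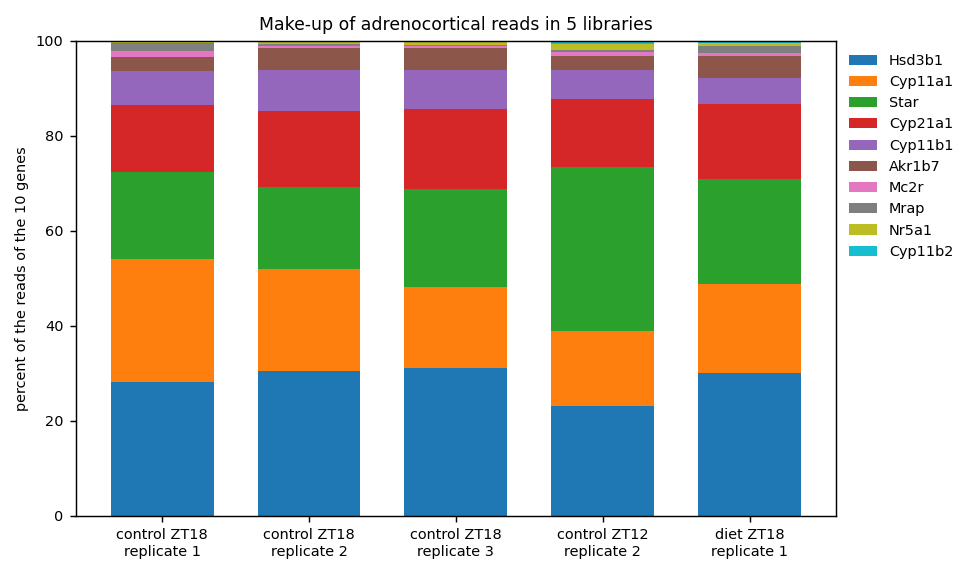
Stacked bars give the percent of the reads of the 10 genes that fell on each gene in the 5 libraries at the threshold. Hsd3b1, Cyp11a1, Star and Cyp21a1 make up most of each bar, and Star takes 34.7% in control ZT12 replicate 2 against 17.3% to 22.1% in the others.

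Cyp11b2 relative to Cyp11b1 was lower in the ZT18 control libraries than in control ZT12 replicate 2 and diet ZT18 replicate 1. The ratio of their reads was 0.0289, 0.0371 and 0.0444 in control ZT18 (14 reads to 485, 66 to 1780 and 86 to 1938). It was 0.101 in control ZT12 replicate 2 (96 to 946, exact 95% interval 0.0814 to 0.125) and 0.0985 in diet ZT18 replicate 1 (53 to 538, 0.0728 to 0.131). The intervals of these libraries lie above those of all 3 control ZT18 libraries, whose highest bound is 0.0551. Akr1b7 per Cyp11b1 read was 0.402 to 0.578 in the 4 control libraries and 0.855 (0.753 to 0.970) in the diet library. Hsd3b1 per Cyp11b1 read was 3.56 to 3.92 in the 4 control libraries and 5.47 (4.99 to 6.01) in the diet library. Star per Cyp11b1 read was 2.02 to 2.53 in control ZT18, 4.03 (3.67 to 4.44) in the diet library and 5.73 (5.35 to 6.15) in control ZT12 replicate 2. The diet and control ZT12 each hold only 1 such library, and Cyp11b1, Cyp21a1, Hsd3b1 and Akr1b7 are rule genes. These ratios therefore describe 5 chosen libraries and have no replicate.

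**Figure D4:**
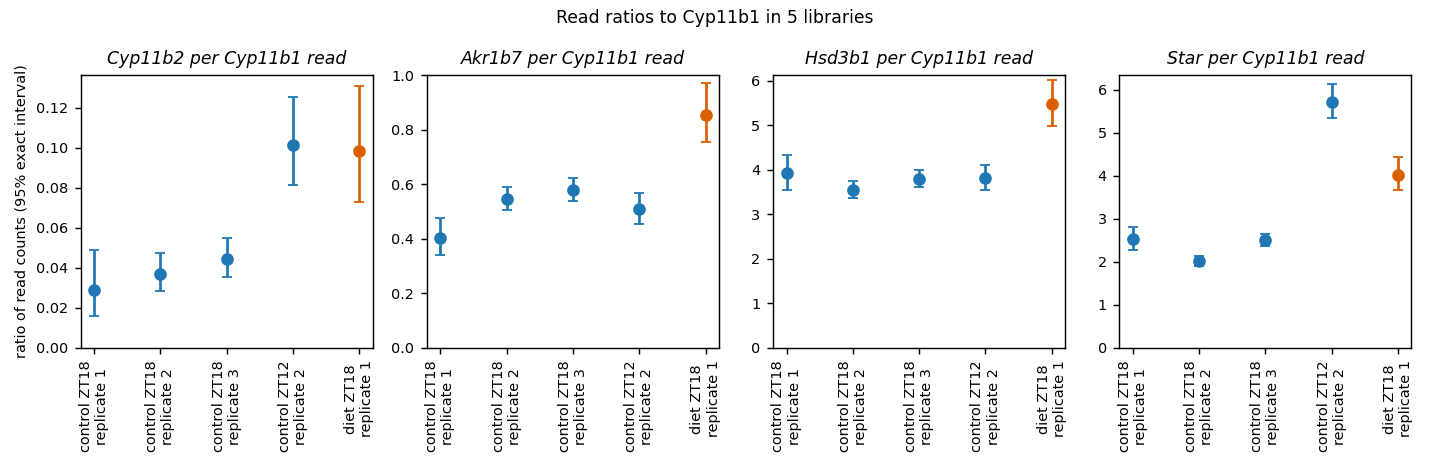
Points give the ratio of a gene's reads to those of Cyp11b1 in each of the 5 libraries, with exact 95% intervals for counting error; axes start at 0, control is blue and the diet orange. Cyp11b2 is higher in control ZT12 replicate 2 and diet ZT18 replicate 1, and Akr1b7 and Hsd3b1 are highest in the diet library.

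Copies and overlaps bear on some of these counts. Of the 50-base words in Cyp11b2 transcripts 19.1% are also in Cyp11b1, and 9.66% the other way, so the counting could split reads between the pair. Cyp21a1 shares 21.3% of its words with the pseudogene Cyp21a2-ps, which held 1.24% to 2.703% of the reads of both in the 5 libraries. Hsd3b1 shares 2.05% with Hsd3b6. The strand setting is not given in the sources used here, so reads in the 285 exon bases that Cyp11b1 shares with Gml2 and the 348 that Akr1b7 shares with Gm13857, both on the opposite strand, cannot be told apart. Akr1b8 and Akr1b10, relatives of Akr1b7, stood at 10.9 to 264 and 20.2 to 49.9 CPM over all libraries and share 0.244% and 1.14% of its words.

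The groups were compared with edgeR's quasi-likelihood test on all tested genes, with Benjamini-Hochberg adjustment. All 10 genes passed the filter on low counts. The 6 genes outside the rule were tested, but they were selected on what is known of these libraries, so their calls are read beside the share of all genes called. Between the diets over all 4 times, 52.4% of 22409 tested genes were called, 27.5% higher and 24.9% lower under diet. Of the 6 genes, Star, Cyp11b2 and Mc2r were called lower and none higher. These calls are no support for the set as a whole: Cyp11b2 held at most 9 reads outside the 5 libraries, and without them it was filtered out as too low.

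Star fell by 1.90 ± 0.49 (SE) on the log2 scale under diet, at an adjusted p of 0.00273 by edgeR. Its means were 53.1 ± 65.4 CPM in control (SD, n = 10) and 10.5 ± 22.2 CPM under diet (SD, n = 12), and the ranges overlapped. Star stood at 50.1 to 169 CPM in the 5 libraries, of which 4 are control and 1 is diet. The fall therefore rests in part on these libraries. Without the 5 libraries, which leaves ZT0, ZT6 and ZT12, the fall was 1.32. In that fit control ZT12 is replicate 1 alone, with Star at 23.8 CPM against 4.27 to 9.61 in diet ZT12. At ZT0 and at ZT6 the ranges of the diets overlapped, so the remaining fall leans on that library. Without control ZT18 replicate 1 it was 1.99 at 0.00229. The adjusted p of Cyp11b2 was 0.0252 by edgeR and that of Mc2r 0.00910. Both calls rested on single libraries: Cyp11b2 was not called without control ZT12 replicate 2, control ZT0 replicate 1 or control ZT6 replicate 1 (adjusted p of 1.00, 1.00 and 0.0656), nor Mc2r without control ZT0 replicate 2, control ZT6 replicate 2 or control ZT12 replicate 2 (0.976, 0.0839 and 0.0503). Mc2r was also not called without the 5 libraries (0.188). No fold is given for these genes because whole groups of libraries held few or no reads of them.

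Nr5a1 missed the threshold, at an adjusted p of 0.0539 by edgeR, and in 19 of 29 alternatives it was also not called. Its log2 difference was -2.43 with all libraries, -1.78 without control ZT12 replicate 2 and -1.74 without the 5 libraries. Nr5a1 held 1, 0 and 0 reads in diet ZT12 and 53, 0 and 0 in diet ZT18. These sizes therefore depend on the fit and are not read as folds. Nr5a1 passed, as lower under diet, with the replicate block (0.0267), with DESeq2 (0.0248) and without diet ZT18 replicate 1 (0.00154). It also passed without any 1 of diet ZT6 replicate 1 (0.0188), diet ZT0 replicate 1 (0.0374), control ZT12 replicate 1 (0.0445), control ZT6 replicate 1 (0.0466), diet ZT12 replicate 1 (0.0491) or control ZT18 replicate 1 (0.0491). Mrap had an adjusted p of 1.00, with 1.71 ± 1.51 CPM in control and 1.79 ± 1.48 under diet (SD, n = 10 and 12).

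Cyp11a1 was not called between the diets, at a log2 difference of 0.73 ± 0.49 (SE) and an adjusted p of 0.224 by edgeR. Leaving out 1 library moved the difference: without control ZT12 replicate 2, which held 58.8 CPM, it was 2.09, higher under diet. That fit leaves control ZT12 with replicate 1 alone. With no filter on low counts and all 22 libraries the difference was 0.76 at 9.5e-09. The size hardly moved, and p-values of that fit were extreme for other genes of the set too, such as 8.44e-61 for Star. Its p-value is therefore not read as a call. Without the 5 libraries the difference was 3.44. The 5, of which 4 are control, held the highest Cyp11a1 levels, so leaving them out moves the difference upward. That fit covers ZT0, ZT6 and ZT12 only, with control ZT12 replicate 1 alone in its group, and is no separate support. Leaving out control ZT18 replicate 1 gave 0.66 at 0.289.

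Over the 4 times in control, 5.74% of genes were called. Cyp11a1 (adjusted p 0.000382) and Star (0.0134) were called by edgeR, and Cyp11b2 (0.0783), Mc2r (0.101), Nr5a1 (0.248) and Mrap (0.508) were not. Cyp11a1 averaged 0.514 ± 0.331 CPM at ZT0 (SD, n = 3), 1.31 ± 0.521 at ZT6 (n = 2), 29.7 ± 41.1 at ZT12 (n = 2) and 126 ± 49.2 at ZT18 (n = 3). Star averaged 4.36 ± 1.98, 5.43 ± 3.84, 76.95 ± 75.1 and 118 ± 61.2 CPM at the same times. Without the 5 libraries, which leaves ZT0, ZT6 and 1 library at ZT12, neither was called (adjusted p 0.508 and 0.311). In that fit the lone ZT12 library is assumed to vary like the other groups. Without control ZT18 replicate 1 both stayed called (0.000713 and 0.0151). Mc2r was called without control ZT0 replicate 2 (0.0148), and Cyp11b2 without control ZT12 replicate 1 (0.0293) or replicate 2 (0.0210). DESeq2 called both (0.0340 for Cyp11b2 and 0.0358 for Mc2r). All 3 control ZT18 libraries were set apart by the rule, so calls over these times follow in part from that choice. Cyp11b2 held at most 9 reads in any library outside the 5, and its calls are no separate support for a change with time.

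Over the 4 times under diet, 1.08% of genes were called and none of the 6, with adjusted p from 0.0706 for Cyp11b2 to 0.683 for Mrap by edgeR. At an unadjusted p under 0.05, 4 of the 6 passed (Cyp11b2, Mc2r, Star and Cyp11a1), as did 11.8% of all tested genes. Diet ZT18 replicate 1 is the only diet library at the threshold. Without it the adjusted p of these 4 genes by edgeR was 0.441, 0.641, 0.934 and 0.751. DESeq2 called Star (0.0294). Star was called without diet ZT18 replicate 3 (0.0406), Mc2r without control ZT0 replicate 2 (0.0422), and Cyp11b2 without control ZT0 replicate 2 (0.0485), control ZT12 replicate 1 (0.0372) or control ZT12 replicate 2 (0.0434). The diet by time interaction called 0.959% of genes. Cyp11a1 was called (adjusted p 0.0195), and the other 5 were not, at 0.429 to 0.865. All 3 control ZT18 libraries but only 1 of the 3 diet ZT18 libraries were set apart by the rule. The interaction call of Cyp11a1 therefore rests in part on where these libraries fall. Without control ZT18 replicate 1 the interaction of Cyp11a1 stayed called (0.0209), and without the 5 libraries it was not called. The fit without the 5 compares ZT0, ZT6 and ZT12 only, with control ZT12 replicate 1 alone in its group. It therefore cannot retest an interaction that involves ZT18.

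The 15 genes outside the set with levels most like those of Cyp11b1 were found, by Pearson correlation of log2 CPM over the 22 libraries, which share the same few high libraries. They were Hsd3b6 (r = 0.956), Mgarp (0.925), Akr1cl (0.913), Ctxn3 (0.910), Prss35 (0.895), Ecrg4 (0.872), Fdx1 (0.851), Slc38a2 (0.844), Cpe (0.836), Lcorl (0.832), Dennd4c (0.822), Srd5a2 (0.820), Tbx3os1 (0.807), Ddx3y (0.807) and Dnaja1 (0.798). Of the 15, 8 had every value in the 5 libraries above every value in the other 17, as did 9 of the 10 genes of the set. Over 18136 genes with enough reads, 30 did (0.165%), a share set beside genes that were chosen for this pattern, so nothing is read from it.

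Hsd3b6, a relative of Hsd3b1 found in the outer adrenal zone, stood at 1.19, 5.201 and 7.90 CPM in control ZT18, 1.25 in control ZT12 replicate 2 and 1.23 in diet ZT18 replicate 1. Elsewhere it held at most 2 reads. Mgarp, a mitochondrial protein of steroidogenic cells, stood at 3.51, 24.9 and 21.3 CPM in control ZT18 and at 11.1 in control ZT12 replicate 2 and 11.3 in diet ZT18 replicate 1. Fdx1, the electron carrier that serves Cyp11a1 and Cyp11b1, was present in all libraries, at 20.2 to 28.8 CPM in the 5 and 10.6 to 21.9 in the other 17. Ddx3y and Dnaja1 were high in all ZT18 libraries, also those below the threshold, and the part of time in their likeness was not tested. Dnaja1 stood at 435 to 496 CPM in control ZT18, 275 to 392 in diet ZT18 and 75.0 to 253 at the other times.

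**Figure D5:**
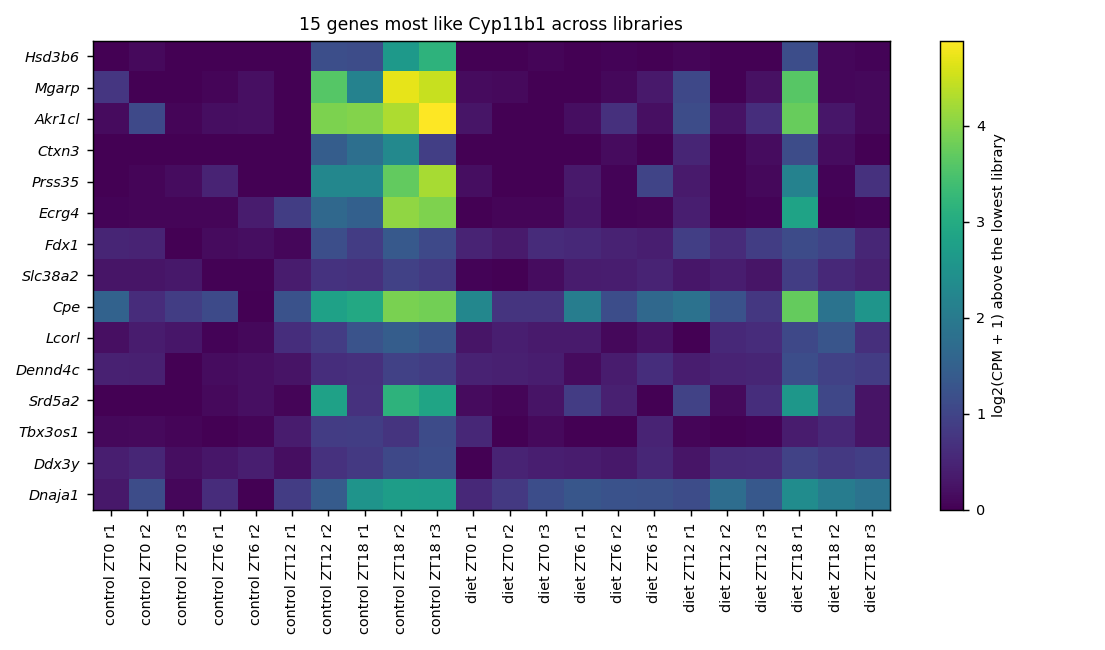
Rows are the 15 genes most like Cyp11b1 and columns the 22 libraries; colour gives log2(CPM + 1) above the lowest library of the gene. Control ZT12 replicate 2, the 3 control ZT18 libraries and diet ZT18 replicate 1 are bright in the rows of Mgarp, Akr1cl and Prss35, while Dnaja1 is raised in all 6 ZT18 libraries.

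Markers of neighbouring tissues were counted in the same libraries. The 14 markers of the adrenal medulla, the catecholamine-making core, summed to 15.2 to 49.1 CPM in control and 26.1 to 225 CPM under diet. In the 5 libraries 3 to 7 of the 14 were at 1 CPM or more, the most in diet ZT18 replicate 1. In the other 17 libraries 3 to 5 were. Penk and Slc18a2, which are not limited to the medulla, made up most of the sum in the 5 libraries. The defining medullary gene Dbh stood at 0 to 0.456 CPM and Th at 0 to 0.944 CPM in the 5 libraries. Pnmt held 30 reads in control ZT18 replicate 1 (1.23 CPM) and 41 in diet ZT18 replicate 1 (1.52 CPM) and 0 in the other 3. Cyp17a1, which the adult mouse adrenal lacks and the gonad uses, held 0 reads in 4 of the 5 libraries and 15 in control ZT18 replicate 3.

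The 14 kidney markers summed to 11.02 to 48.6 CPM in control and 131 to 226 CPM under diet, nearly all from Napsa, which immune cells share. Umod was at 0 in all 5 libraries and Slc12a1 at 0 to 0.144 CPM. Of the 10 gonad markers Amh was at 0 in all 5 libraries and Lhcgr at 0.0409 to 0.49 CPM, and the list summed to 8.09 to 19.3 CPM in control and 19.2 to 59.3 under diet. Adipoq, the defining fat cell gene, stood at 0 to 1.03 CPM in the 5. The 9 fat markers, led by Fabp4 of endothelial cells, summed to 302 to 420 CPM in control and 53.3 to 137 under diet. Of these 9, 3 to 5 were at 1 CPM or more in the 5 libraries and 2 to 4 in the other 17. Whether adrenal tissue carried along with the liver contributed the reads of the 10 genes was not tested.

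Other genes of steroid synthesis, of adrenal control and of glucocorticoid response were tested in the same fit. Of 23 tested partners in steroid synthesis and cholesterol supply, 6 were called higher and 4 lower under diet, of 18 adrenal regulators 7 and 6, and of 16 glucocorticoid receptors and targets 6 and 9, beside 27.5% higher and 24.9% lower over all genes. Their median log2 differences were 0.28, -0.22 and -0.42, against 0.08 over all genes. Dab2, an adaptor that marks the outer adrenal zone and also endothelium, fell by 3.49 ± 0.12 (SE) on the log2 scale (adjusted p 1.59e-15 by edgeR), from 371 to 893 CPM in control to 37.4 to 96.0 under diet. Gata4, a transcription factor of liver endothelium and of steroidogenic cells, fell by 3.598 ± 0.14 (6.72e-15). Scarb1, which takes up lipoprotein cholesterol, fell by 1.81 ± 0.07 (1.73e-14). Mt1, a metallothionein induced by glucocorticoid, fell by 2.55 ± 0.11 (5.14e-14). Endothelial markers fell in the same libraries, all 10 of 10 called lower, and their part in these changes was not tested.

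Over the times in control, 5 of the 23 partners, 4 of the 18 regulators and 6 of the 16 glucocorticoid genes were called, beside 5.74% of all genes. Under diet 0, 1 and 2 were called, beside 1.08%. Nr4a1, an immediate early nuclear receptor that corticotropin induces in the adrenal, stood at 698 to 752 CPM in control ZT18 and 58.1 to 219 at the other control times (adjusted p 7.47e-06 by edgeR). Dusp1, a phosphatase induced by glucocorticoid and by stress, changed with time in both control (7.72e-06) and diet libraries (0.0356). Per1, a clock gene that glucocorticoid also induces, stood at 20.0 to 32.2 CPM at ZT0 and 65.0 to 82.8 at ZT18 in control (4.12e-05). Tsc22d3, a glucocorticoid target, and Nr4a1 were called over the times under diet (0.0401 and 0.0482).

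The genes of the 3 lists called in the interaction of diet and time, beside 0.959% of all genes, included Per1 (adjusted p 0.00569 by edgeR), Creb1 (0.0361) and Mt1 (0.0453). Per1 stood at 101 to 142 CPM in all diet libraries. Of the partners that were most like Cyp11b1, Hsd3b6 (0.0166) and Srd5a2 (0.0318) were called over the times in control, and Mgarp (0.0893) and Fdx1 (0.118) were not. These partners were picked for likeness to a rule gene, and all 3 control ZT18 libraries were at the threshold. Their calls over time therefore follow in part from that choice and are no separate support.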

How the data were processed

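RNA-seq of 22 libraries was analysed, 10 control and 12 with the CDA-HFD diet. The submitters' processing notes name STAR 2.7.9a, HTSeq, DESeq2 and the build GRCm38. The sources used here give neither the annotation nor the strand setting. The deposited table holds whole-number read counts. All of its columns were matched to samples and no entry lacks a gene name. CPM divide a count by the library total (19754805 to 41665623 reads).

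Counts were tested with edgeR 4.0.16 (limma 3.58.1) in R 4.3.3 (filterByExpr, TMM, glmQLFit and glmQLFTest, 1 mean for each of 8 groups, Benjamini-Hochberg, called at an adjusted p under 0.05), tested on simulated data first. Likeness used log2 CPM with a prior count of 2, over genes with 30 or more reads in 1 library. Gene models are GENCODE M21; 53292 of 55367 symbols matched. Alternatives were other scalings, filters, DESeq2 1.42.0, a replicate block, each library left out, and, chosen after seeing the data, all 5 libraries left out.

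The members, lists and rules were chosen with earlier results of these data known. Named were the 10 genes, the 15 most like Cyp11b1, near copies, and up to 4 called genes of smallest p per contrast from 3 pathway lists. One gene that this rule names is not reported here. Markers of 14 cell types or tissues were counted: of the lists not described in the report, mesothelium summed to 10.8 to 118 CPM, intestine to 1.27 to 11.1, erythroid to 1071 to 5240, hepatocyte to 191 to 1595 and Kupffer to 302 to 2615.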

Additional observations from a re-analysis of the deposited data

Results flagged for a closer look

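The diet by time interaction of Cyp11a1 had an adjusted p of 0.0195 by edgeR. All 3 control ZT18 libraries but only 1 of the 3 diet ZT18 libraries were set apart by the rule. The call therefore rests in part on where these libraries fall and is no separate support for a time course that differs by diet. In control it stood at 0.14 to 1.68 CPM at ZT0 and ZT6 and at 71.2 to 166 CPM at ZT18. Under diet it stood at 7.21 to 24.5 CPM at ZT0 and ZT6 and at 11.2 to 68.5 CPM at ZT18. With the 5 libraries at the threshold left out, the interaction was not called. That fit compares ZT0, ZT6 and ZT12 only, with control ZT12 replicate 1 alone in its group. It therefore cannot retest an interaction that involves ZT18.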

How the results depend on the processing

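Over 30 alternatives each, where the fit kept the gene, the call of Star between the diets held in 30 of 30 (fall of 1.32 to 2.61, adjusted p 8.44e-61 to 0.0169), and that of Cyp11a1 in the interaction in 29 of 30. The extreme p-values come from the fit with no filter. Of the 5 libraries at the threshold 4 are control and 1 is diet, and every alternative but the fit without the 5 kept most of them. Holding over these alternatives is therefore no separate support for an effect of diet. The number of called genes moved more. With library size only, 561 genes were called over the times under diet. With no filter 2866 were called over the times in control, 1500 under diet and 2085 in the interaction. With a mean of at least 5 CPM, 425 were called under diet and 388 in the interaction. DESeq2 called 3084, 1095 and 1438. Without the 5 libraries, 194, 47 and 52 were called, with fewer samples. Leaving out each library gave 10920 to 11950 genes between the diets, 790 to 1957 over the times in control, 96 to 663 under diet and 76 to 1086 in the interaction. The replicate block gave 11500, 1167, 180 and 123, and of the 6 tested genes it changed the call of Nr5a1 alone. Same-numbered libraries did not deviate together (mean r of -0.00481 over 71 pairs, from -0.143 to 0.138, and 4 of 22 libraries closest to their own number). No pairing by number was seen, and whether the numbers mark a shared batch was not tested.

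The diet direction of the rule genes Cyp21a1 and Hsd3b1 was not stable. In the fits as reported neither was called; past the threshold the fitted log2 difference was 3.13 for Hsd3b1 with DESeq2, and 4.87 for Cyp21a1 and 4.70 for Hsd3b1 without the 5 libraries. Short of the threshold, other alternatives also turned the sign, such as 3.09 and 2.94 without control ZT12 replicate 2, and 0.47 for Cyp11b1 without the 5. None of these is a result: the genes chose the libraries, and control libraries below the threshold held at most 1 read of Cyp21a1 and 2 of Hsd3b1, so the sizes depend on the fit. Per kilobase of exon, Hsd3b1 made up 39.8%, 41.2% and 41.8% of the 10 genes in control ZT18, 34.1% in control ZT12 replicate 2 and 40.4% in diet ZT18 replicate 1. By Spearman correlation 4 of the 15 genes most like Cyp11b1 were shared, and with a prior count of 0.5, 13 were. The cause was not tested. Genes below about 30 reads are limited by depth.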

Other observations

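Genes of the exocrine pancreas were present in some of the same libraries, in another order. The 13 pancreas markers summed to 139 CPM in diet ZT18 replicate 3, a library below the adrenocortical threshold, where Pnlip, the pancreatic lipase, stood at 26.1 CPM, Ctrb1 at 21.97, Cel at 21.5 and Cpa1 at 17.8. Pnlip stood at 5.54 CPM in control ZT12 replicate 2 and 4.64 in diet ZT18 replicate 1, both at the threshold, at 1.4995 in diet ZT0 replicate 2, and under 1 CPM in every other library. All 3 control ZT18 libraries held 0 reads of Pnlip. Ins2, the insulin gene of the islets, stood at 7.40 CPM in diet ZT18 replicate 3, 3.71 in diet ZT0 replicate 2 and 1.86 in diet ZT18 replicate 1. These values are given as measured, and no test compares the libraries.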
